A study of Mus musculus with 3 samples.

Results

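A group of 7 genes that mark macrophages and other leukocytes was followed through an RNA immunoprecipitation from mouse white fat. They were taken by symbol from the deposited counts, and 7 of 7 were found among the 39179 genes listed there. The RNA came from C57BL/6 mice aged 16 weeks that carried a Flag-FTO transgene and had been fasted overnight. It was pulled down with the anti-Flag M2 antibody in 2 libraries (Flag-IP 1 and Flag-IP 2) and with nonspecific IgG in 1 library (IgG-IP). All 3 libraries came from transgenic mice, so no group lacks the tagged protein. The labels do not give the promoter that drives the transgene, nor whether each library came from its own animal. The edgeR p-values therefore rest on the spread between the Flag-IP libraries, shared between genes and not taken from each gene's own pair. That spread may be technical, and the lone IgG-IP library adds nothing to it.

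White fat holds, beside its fat cells, a population of resident macrophages that clear dead adipocytes and take up lipid, and these cells increase in obesity. FTO strips methyl groups from adenosines in RNA. An RNA that the tagged enzyme carries should be more abundant with the Flag antibody than with IgG, and the IgG-IP library gives the level of RNA that is held back unspecifically. The 7 genes fall into 4 roles. Ptprc encodes CD45, the receptor tyrosine phosphatase on the surface of nearly all nucleated blood cells. Csf1r encodes the receptor through which colony-stimulating factor 1 and interleukin-34 keep macrophages alive. Mrc1 (CD206, the mannose receptor) and Cd163 (the scavenger receptor for haemoglobin bound to haptoglobin) are endocytic receptors of tissue-resident macrophages. Cd68 and Laptm5 encode membrane proteins of the lysosome, and Lgals3 encodes galectin-3, a lectin that binds beta-galactosides and is made by macrophages and by other cells.

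The methyl mark that FTO removes is placed mainly within a short consensus, of which GGACT is a frequent DNA spelling. The coding sequence of the longest protein-coding transcript of each gene (GENCODE M21, GRCm38) was searched for these 5 letters on the sense strand. Ptprc held 4 of them in 3879 coding bases, Mrc1 8 in 4368, Cd163 7 in 3477, Csf1r 5 in 2931, Cd68 1 in 978 and Laptm5 1 in 783. Lgals3 held 0 in 792 bases. Among coding sequences within 10% of the length of Lgals3, 61.3% of 1449 held the motif at least once, and for the length of Ptprc the share was 98.4% of 610. A match is only a match of letters, since no methylation was measured. The 60-base stretch around the first match is shown for 5 of the genes, to let the RNAs behind the counts be seen. Capitals mark every GGACT in the stretch, and bases are counted from the start of the coding sequence.
Ptprc, bases 331 to 390: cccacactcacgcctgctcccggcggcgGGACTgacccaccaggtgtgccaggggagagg
Mrc1, bases 798 to 857: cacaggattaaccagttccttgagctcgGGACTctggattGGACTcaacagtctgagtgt
Cd163, bases 353 to 412: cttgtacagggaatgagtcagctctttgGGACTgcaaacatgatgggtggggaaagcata
Cd68, bases 602 to 661: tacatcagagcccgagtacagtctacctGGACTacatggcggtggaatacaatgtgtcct
Laptm5, bases 275 to 334: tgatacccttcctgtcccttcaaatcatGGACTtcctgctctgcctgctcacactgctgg
The stretch of Ptprc has a GC content of 73.3%, far above the 42.7% of its whole transcript. The other 4 stretches lie between 48.3% and 53.3%.

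Library totals were 98227791 and 95824218 counts for Flag-IP, against 74176962 for IgG-IP. Of these, 97.6%, 97.6% and 97.0% fell on 28 genes with at least 100000 counts in some library, none of them among the 7. The median tested gene had 24, 26 and 25 counts, so differences in weakly counted genes were often not detectable at this depth. Genes were tested in Flag-IP against IgG-IP with edgeR's quasi-likelihood test and Benjamini-Hochberg adjustment over all 17587 genes that passed a filter on low counts. A gene is called at an adjusted p under 0.05. Of all tested genes, 5.77% were called lower and 5.58% were called higher in Flag-IP. Normalized counts are counts brought to a common effective library size. Levels are on that scale unless another is named.

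Setting Flag-IP against IgG-IP asks which RNAs the tagged enzyme carried above background. Of the 6 tested markers, 0 were called higher in the Flag-IP libraries and 2 were called lower. Ptprc fell to 0.568 times its IgG-IP level and Lgals3 to 0.375 times. Mrc1, Laptm5, Csf1r and Cd163 did not pass the threshold in either direction, and Cd68 was too weakly counted to be tested. At an unadjusted edgeR p under 0.05, 0 of the 6 tested markers were higher and 2 were lower, beside 2268 and 2072 of the 17587 tested genes. DESeq2, which gave an adjusted p to 1 of the 6, called 0 in either direction. The 2 called of 6 tested stand beside the 5.77% of all tested genes called lower, and with so few members the share is a description only. The quartiles of log2 fold change over all tested genes were -0.54 and 0.66, and Lgals3 and Ptprc lay below that range while the other 4 tested markers lay inside it.

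**Figure D1:**
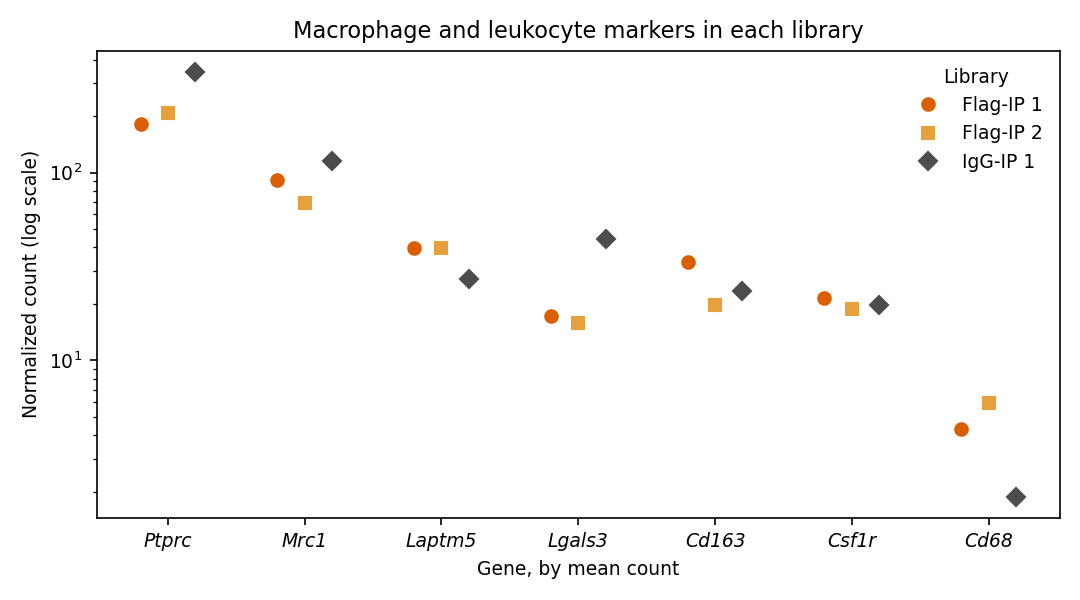
Normalized counts (log axis) of the 7 markers in Flag-IP 1 (circles), Flag-IP 2 (squares) and IgG-IP 1 (diamonds), ordered by mean count. For Ptprc and Lgals3 both Flag-IP points lie well below the diamond, while for Csf1r and Cd163 they lie on either side of it.

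Ptprc (ENSMUSG00000026395, GRCm38, minus strand of chromosome 1, 138062861 to 138175708) was the most highly counted marker. Its counts were 168 and 211 with the Flag antibody, against 365 with IgG. After scaling this was 181 and 209 normalized counts in Flag-IP, a mean of 195 ± 19.8 (SD, n = 2), against 344 in IgG-IP (n = 1). Both Flag-IP libraries lay below the IgG-IP library, and the gap between the groups was several times the gap between the Flag-IP libraries. The log2 fold change was -0.82 ± 0.22 (SE) and the edgeR adjusted p was 0.00516. From the counts alone, the Flag-IP to IgG-IP ratio was 0.569, with an exact (Clopper-Pearson) 95% interval from 0.491 to 0.658 that covers counting error only. The call did not hold in every fit. With the trend of fold change on transcript GC removed, a setting chosen after seeing the data, the log2 fold change was -0.33 and the edgeR adjusted p was 0.556. With the trend on exonic length removed, chosen likewise, they were -0.52 and 0.119. Nor did the call hold in edgeR's likelihood ratio test with a common dispersion (adjusted p = 0.1001) or in DESeq2 (adjusted p = 0.129). Of the 17587 tested genes, 2653 had a lower fold change than Ptprc.

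Lgals3 (ENSMUSG00000050335, GRCm38, plus strand of chromosome 14, 47367751 to 47386160) had 16 counts in each Flag-IP library, against 47 with IgG. The normalized counts were 17.2 and 15.8 in Flag-IP, a mean of 16.5 ± 0.980 (SD, n = 2), against 44.3 in IgG-IP. The Flag-IP libraries nearly coincided, and both lay far below the IgG-IP library. The log2 fold change was -1.42 ± 0.49 (SE) and the edgeR adjusted p was 0.0367. From the counts alone the ratio was 0.373, with an exact 95% interval from 0.230 to 0.597. Only 3.93% of tested genes had a lower fold change. The adjusted p was close to the threshold, and with upper-quartile scaling edgeR gave an adjusted p of 0.0511. DESeq2 gave no adjusted p for this gene, and its unadjusted p was 0.121. The nearest gene with counts is Dlgap5, a cell division gene 1619 bases away on the other strand, which had 28 and 38 counts in Flag-IP and 30 in IgG-IP.

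Of the endocytic receptors, Mrc1 (ENSMUSG00000026712, GRCm38, plus strand of chromosome 2, 14229392 to 14332057) was the second most highly counted marker. Its counts were 85 and 70 with the Flag antibody and 123 with IgG, or 91.5 and 69.3 normalized counts in Flag-IP against 116 in IgG-IP. Both Flag-IP libraries lay below the IgG-IP library, but they also differed from each other. The log2 fold change was -0.53 ± 0.29 (SE) and the edgeR adjusted p was 0.238. With total-count scaling in place of TMM factors Mrc1 was called lower (log2 fold change -1.05, adjusted p = 0.00978), but that scaling moved the median of all tested genes by -0.52. Cd163 (ENSMUSG00000008845, GRCm38, plus strand of chromosome 6, 124304656 to 124330527) had 31 and 20 counts in Flag-IP and 25 in IgG-IP. Its Flag-IP libraries, at 33.4 and 19.8 normalized counts, lay on either side of the IgG-IP library at 23.5. The log2 fold change was 0.17 ± 0.51 (SE) and the edgeR adjusted p was 0.880, and the exact 95% interval of the count ratio, 0.680 to 1.88, spans both directions. The small nucleolar RNA gene Gm25311, 228 bases from Cd163, had 0 and 2 counts in Flag-IP and 0 in IgG-IP.

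Csf1r (ENSMUSG00000024621, chromosome 18), the growth factor receptor, had 20 and 19 counts in Flag-IP and 21 in IgG-IP. The Flag-IP libraries, at 21.5 and 18.8 normalized counts, lay on either side of IgG-IP at 19.8. The log2 fold change was 0.03 ± 0.58 (SE) and the edgeR adjusted p was 0.986. At this depth the exact 95% interval of the count ratio runs from 0.584 to 1.82, so a difference smaller than that was not detectable. Exons of Csf1r and of Hmgxb3, a gene on the opposite strand, overlap over 873 bases. Hmgxb3 had 31 and 31 counts in Flag-IP and 51 in IgG-IP. The strand setting of the counting is not given in the sources used here, so counts in the overlap cannot be assigned to either gene and the values of Csf1r are uncertain.

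Of the lysosomal proteins, Laptm5 (ENSMUSG00000028581, GRCm38, plus strand of chromosome 4, 130913125 to 130936141), which directs antigen receptors of lymphocytes to lysosomes, had 37 and 40 counts in Flag-IP and 29 in IgG-IP. The normalized counts were 39.8 and 39.6 in Flag-IP, against 27.3 in IgG-IP. Both Flag-IP libraries lay above the IgG-IP library, which makes Laptm5 the only tested marker on that side. The log2 fold change of 0.54 ± 0.44 (SE) did not pass, with an edgeR adjusted p of 0.488. Cd68 (ENSMUSG00000018774, GRCm38, minus strand of chromosome 11, 69664213 to 69666153), the histological macrophage marker, had 4 and 6 counts in Flag-IP and 2 in IgG-IP. The ratio of the counts was 2.74 with an exact 95% interval from 0.584 to 25.7, so neither direction can be read from it. Cd68 lies 783 bases from Eif4a1, a translation factor gene on the same strand with 30 and 10 counts in Flag-IP and 12 in IgG-IP, and 1571 bases from Mpdu1, which had 7 and 0 in Flag-IP and 2 in IgG-IP.

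Both Flag-IP libraries lay below the IgG-IP library for Ptprc, Mrc1 and Lgals3, 3 of the 6 tested markers, a side that 39% of all tested genes share. They lay above it for Laptm5, 1 of 6, as for 40.5% of all tested genes. Summed over all 7 markers, the level was 389 and 378 normalized counts in Flag-IP and 576 in IgG-IP. Ptprc made up 46.5% and 55.2% of that sum in Flag-IP and 59.6% in IgG-IP. The summed level of 33 further macrophage genes was 867 and 842 normalized counts in Flag-IP and 812 in IgG-IP. Both kinds of pull-down started from lysates of whole fat of transgenic mice, so these levels compare RNA recovered with each antibody. They measure neither the number of macrophages nor the RNA in each of them.

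**Figure D2:**
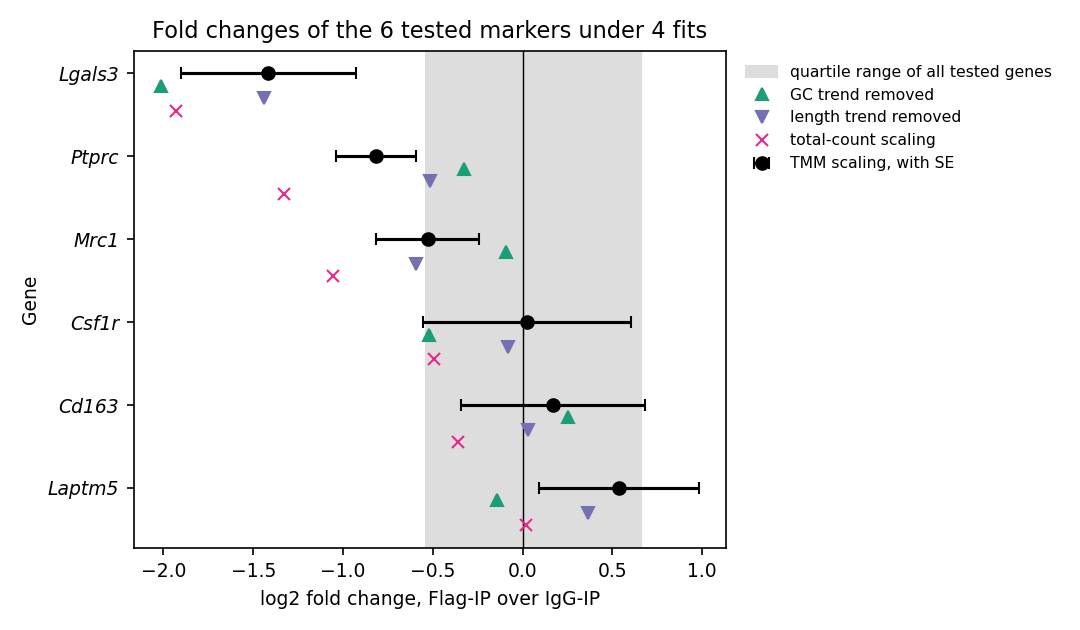
Log2 fold changes (Flag-IP over IgG-IP) of the 6 tested markers, with black points and bars for the TMM fit and its SE, and other symbols for fits with the GC trend removed, the length trend removed or total-count scaling. The grey band is the range between the quartiles of all tested genes in the TMM fit, and the quartiles of the other fits are not drawn. Lgals3 lies left of the band in all 4 fits. Ptprc moves into the band when either trend is removed, with the length trend only just (-0.52, against a lower quartile of -0.54).

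Levels of different genes were compared per kilobase of the longest protein-coding transcript, in CPM (counts scaled by the effective library size). On this scale Ptprc was the highest marker, at 0.401 and 0.464 in Flag-IP and 0.763 in IgG-IP. Mrc1 was at 0.192 and 0.145 in Flag-IP and 0.243 in IgG-IP. Laptm5 was at 0.173 and 0.172 in Flag-IP and 0.118 in IgG-IP. In the Flag-IP libraries the levels of Mrc1 and Laptm5 overlapped, so their order there is not settled. Lgals3 was at 0.137 and 0.126 in Flag-IP, below Laptm5, and at 0.351 in IgG-IP, where it stood second after Ptprc. The lowest levels were those of Cd163, Csf1r and Cd68, at 0.0394 to 0.0846 in the Flag-IP libraries and 0.0172 to 0.0597 in the IgG-IP library, and their ranges in Flag-IP overlapped. With introns, the genes span 112848 bases for Ptprc, 102666 for Mrc1, 18410 to 31552 for Lgals3, Laptm5, Cd163 and Csf1r, and 1941 for Cd68. Whether reads in introns were counted is not given, so these levels may not be those of mature mRNA, which was not tested. The place of Ptprc also depends on the length used. Its annotated exons, which include retained introns, cover 18313 bases against 5074 in the longest protein-coding transcript, and per kilobase of all exons Ptprc was at 0.111 and 0.128 in Flag-IP and 0.211 in IgG-IP, close to Mrc1 at 0.162 and 0.1225 in Flag-IP and 0.205 in IgG-IP.

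Base composition moved with the comparison over all genes, and the markers differ in it. Transcript GC was 42.7% for Ptprc and 43.4% for Mrc1, against a median of 49.2% over 14920 tested protein-coding genes. It was 47.9% for Cd163 and 52.9% to 56.0% for Cd68, Csf1r, Lgals3 and Laptm5. Among 1262 protein-coding genes within 1 percentage point of the GC of Ptprc, the median log2 fold change was -0.52, and 29.2% had a lower fold change than Ptprc. Among 1389 such genes for Mrc1 the median was -0.44, and 43.6% were lower. Lgals3 went the other way from its neighbours in GC: among 1327 such genes the median log2 fold change was 0.61, and 0.980% had a lower fold change than Lgals3. Csf1r and Laptm5 also lay below the medians of their neighbours in GC, which were 0.56 and 0.71, with 21.3% and 41.0% of the neighbours lower.

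With the trend of fold change on GC entered into the edgeR fit, a setting chosen after seeing the data, 1 marker was called lower and 0 were called higher, beside 1.98% of all tested genes called lower and 2.26% called higher. That marker was Lgals3, at a log2 fold change of -2.01 and an adjusted p of 0.00169. The call of Ptprc was lost in that fit, as given above. With a trend on exonic length in place of GC, Lgals3 was at -1.44 (adjusted p = 0.0331) and the call of Ptprc was again lost. Ptprc has longer annotated exons than 98.9% of tested protein-coding genes, and Lgals3 than 10.7%. This length counts all annotated exons, 18313 bases for Ptprc against 5074 in its longest protein-coding transcript. A fit with transcript length was not made. The part of GC and length in the fall of Ptprc was not tested beyond these fits.

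**Figure D3:**
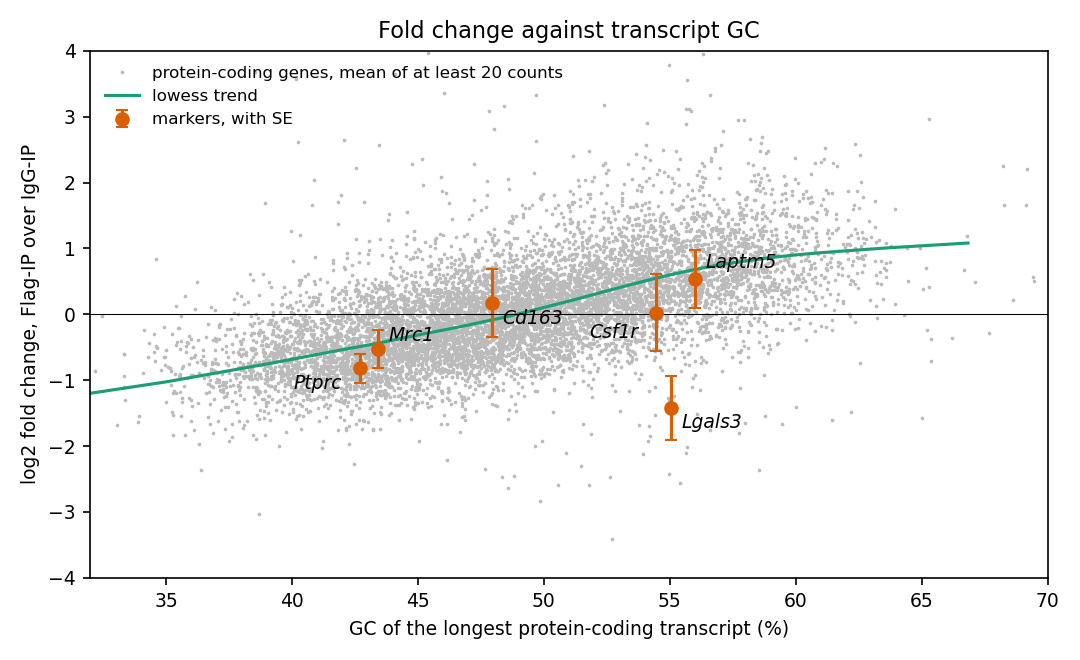
Log2 fold change (Flag-IP over IgG-IP) against GC of the longest protein-coding transcript for 9084 protein-coding genes averaging 20 counts or more (grey), with a lowess trend through the tested protein-coding genes and the 6 tested markers with their SE (orange); genes beyond 4 on the vertical axis are not drawn. Ptprc and Mrc1 lie near the trend at low GC, and Lgals3 lies far under it.

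The genes whose pattern over the 3 libraries was most like that of Ptprc were looked up. Among 4978 other genes averaging 50 counts or more, likeness was measured as the Euclidean distance between log2 CPM centred on each gene's mean. The 3 most like genes were Wnk1, a kinase of ion transport (64 and 81 counts in Flag-IP and 140 in IgG-IP), Cpne8, a calcium-dependent membrane-binding protein gene (96 and 120 in Flag-IP and 207 in IgG-IP), and Abca8a, a lipid transporter gene (38 and 48 in Flag-IP and 83 in IgG-IP). In all, 104 of the 4978 genes lay within a distance of 0.1 of Ptprc. With 3 libraries this is a description only.

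Further macrophage genes gave no call. Of 33 further macrophage genes in the table, 23 were tested. Of these edgeR called 0 in either direction, beside 5.58% of all tested genes called higher and 5.77% called lower. At an unadjusted edgeR p under 0.05, 2 were higher and 1 was lower, beside 2268 and 2072 of all 17587 tested genes. DESeq2, which gave an adjusted p to 1 of the 23, also called 0. The likelihood ratio test of edgeR called 1 higher, beside 1130 of all tested genes. Their median log2 fold change was 0.04, against 0.03 for all tested genes. Total-count scaling called 2 of the 23 lower, beside 17.1% of all tested genes under that scaling. Irf8, a transcription factor of the myeloid line, had 33 and 22 counts in Flag-IP and 14 in IgG-IP. Spi1, which encodes PU.1, the transcription factor that drives Csf1r, had 67 and 61 counts in Flag-IP and 36 in IgG-IP (log2 fold change 0.96, edgeR adjusted p = 0.0769). Msr1, a scavenger receptor gene, had 21 and 31 counts in Flag-IP and 52 in IgG-IP. Emr1, the gene of the F4/80 antigen, had 76 and 68 counts in Flag-IP and 111 in IgG-IP. Cd14 and Lyz2 had 0 counts in both Flag-IP libraries and 4 in IgG-IP. These 3 were picked once their values were known, and all 3 had lower counts in Flag-IP. Cx3cr1, the most highly counted gene of the list, had 177 and 197 counts in Flag-IP and 167 in IgG-IP. Mertk had 107 and 118 in Flag-IP and 104 in IgG-IP. Of the 23 tested genes, both Flag-IP libraries lay above IgG-IP for 9 and below it for 5. Of all tested genes, 40.5% lay above and 39% below.

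Of the genes shared by most leukocytes, 17 were tested, and 1 was higher and 0 were lower, beside 5.58% of all tested genes called higher and 5.77% called lower. Vav1, an exchange factor that relays signals of antigen receptors, had 70 and 66 counts in Flag-IP and 23 in IgG-IP, a log2 fold change of 1.69 ± 0.41 (SE) with an edgeR adjusted p of 0.00118. With the GC trend removed 0 of the 17 were called. Total-count scaling called 1 higher (Vav1) and 3 lower (Cd53, Dock2 and Lcp1), beside 1.94% of all tested genes called higher and 17.1% called lower under that scaling. Cd53, a leukocyte tetraspanin gene, had 21 and 18 counts in Flag-IP and 46 in IgG-IP. Itgb2, the shared beta chain of the leukocyte integrins, had 24 and 44 counts in Flag-IP and 18 in IgG-IP. Neither passed. The median log2 fold change of this list was 0.32 and its summed level was 1055 and 1033 normalized counts in Flag-IP and 1032 in IgG-IP. The difference between Ptprc and this list was not tested.

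Relatives and partners of the markers were set beside them. Il34, a ligand of the Csf1r receptor, rose with 112 and 117 counts in Flag-IP and 45 in IgG-IP, a log2 fold change of 1.48 ± 0.32 (SE) with an edgeR adjusted p of 0.000260. The other ligand gene, Csf1, had 16 and 21 counts in Flag-IP and 18 in IgG-IP and did not pass. Src, a kinase of the family that CD45 acts on in leukocytes, rose with 68 and 90 counts in Flag-IP and 39 in IgG-IP (log2 fold change 1.14 ± 0.36, SE, edgeR adjusted p = 0.0194). Lyn and Fyn of the same family did not pass, with 82 and 101 counts in Flag-IP and 135 in IgG-IP for Lyn, and 162 and 178 in Flag-IP and 149 in IgG-IP for Fyn. Ptprj, another receptor tyrosine phosphatase, had 188 and 243 counts in Flag-IP and 167 in IgG-IP. Among relatives of the mannose receptor, Mrc2 had 106 and 114 counts in Flag-IP and 89 in IgG-IP, and Ly75 had 64 and 55 in Flag-IP and 69 in IgG-IP. In all, 2 of 11 tested genes of this list were higher and 0 were lower, beside 5.58% and 5.77% of all tested genes. Once the GC trend was removed 0 were called, beside 2.26% of all tested genes higher and 1.98% lower. Total-count scaling called 0 higher and 1 lower, beside 1.94% and 17.1% of all tested genes. The call of Il34 also missed the threshold with total-count scaling (edgeR adjusted p = 0.0501), and that of Src with total-count scaling, without the filter, with the length trend removed and in the likelihood ratio test (edgeR adjusted p from 0.0513 to 0.284).

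Other galectins gave no call either. Of 8 in the table, 4 were tested. Of these edgeR called 0 in either direction, beside 5.58% of all tested genes called higher and 5.77% called lower. At an unadjusted edgeR p under 0.05, 1 was higher, beside 2268 of 17587 tested genes. DESeq2 gave none of the 4 an adjusted p. The likelihood ratio test of edgeR called 1 higher, beside 1130 of all tested genes. With so few galectins tested, this is a description only. Lgals1 had 31 and 24 counts in Flag-IP and 19 in IgG-IP, Lgals9 had 36 and 10 in Flag-IP and 16 in IgG-IP, and Lgals8 had 21 and 20 in Flag-IP and 25 in IgG-IP. Genes of the lysosome were set beside Cd68 and Laptm5. Psap, the precursor of the saposins, had 41 and 51 counts in Flag-IP and 27 in IgG-IP, Ctsb (cathepsin B) had 20 and 31 in Flag-IP and 9 in IgG-IP, and Lipa (lysosomal acid lipase) had 21 and 19 in Flag-IP and 41 in IgG-IP. None of these 3 passed.

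**Figure D4:**
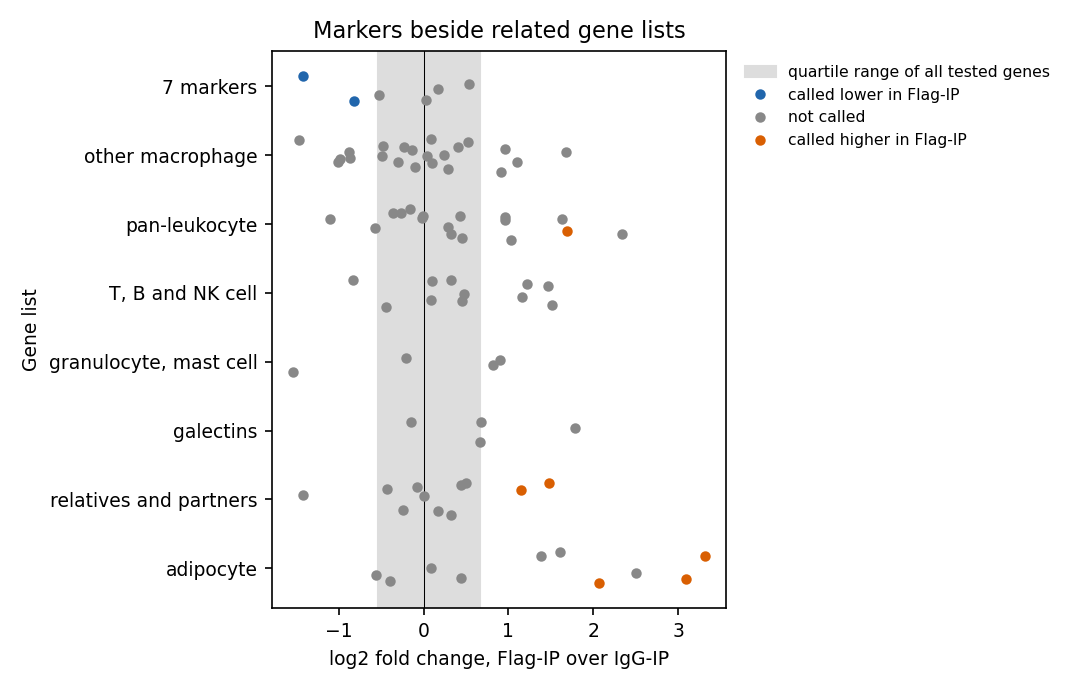
Log2 fold changes (Flag-IP over IgG-IP) of the tested markers and of 7 related gene lists, 1 point per gene, coloured by the edgeR call, with vertical scatter within a row only to separate points; the grey band is the range between the quartiles of all tested genes. C1qb, a macrophage gene at 0 counts in IgG-IP, is not drawn. Its log2 fold change in the edgeR fit was 6.25 ± 2.71 (SE), the largest of these lists, and it was not called. Both blue points, called lower, are markers (Lgals3 and Ptprc), and the largest fold changes drawn are those of adipocyte genes.

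Adipocyte genes were set beside the markers. All 11 had counts, which does not check the label of white fat, since only 8136 of 39179 genes had 0 counts in all libraries. Of 10 tested, 3 were higher in Flag-IP and 0 lower, beside the 5.58% and 5.77% of all tested genes. Total-count scaling called 3 higher and 2 lower (Cidec and Pparg), beside 1.94% and 17.1% of all tested genes. The fit with the GC trend called 2 higher and 1 lower (Cidec), beside 2.26% and 1.98%. Aqp7, which lets glycerol out of fat cells, had 1932 and 1631 counts in Flag-IP and 196 in IgG-IP. Plin1 had 34 and 59 in Flag-IP and 12 in IgG-IP and was not called with the GC trend removed (edgeR adjusted p = 0.151), and Plin4 had 30 and 34 in Flag-IP and 4 in IgG-IP. Adipoq had 18 and 14 counts in Flag-IP and 3 in IgG-IP and did not pass. Adipocyte genes with lower counts in Flag-IP were named once their values were known. Pparg, the transcription factor of fat cell formation, had 68 and 117 counts in Flag-IP and 148 in IgG-IP, Cidec, a lipid droplet gene, had 117 and 93 in Flag-IP and 152 in IgG-IP, and Cfd had 6 and 4 in Flag-IP and 7 in IgG-IP. The summed level of the 11 genes was 5806 and 3952 normalized counts in Flag-IP and 3035 in IgG-IP, and this rested on Aqp7. Without Aqp7 the sum was 3725 and 2337 in Flag-IP and 2850 in IgG-IP, so that the Flag-IP libraries lay on either side of IgG-IP. This remainder was mostly Lpl, which was not called. In raw counts Lpl held 3108 of 3459 and 1996 of 2360 in Flag-IP, and 2666 of 3026 in IgG-IP. The sum without Aqp7 therefore mainly describes Lpl and not the list. The part of adipocyte RNA in the fall of Ptprc and Lgals3 was not tested.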

How the data were processed

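RNA immunoprecipitated from white fat was sequenced on an Illumina HiSeq instrument, per the labels' protocols. Per the submitters' processing notes, the build was mm8 and the tools were CASAVA 1.7 and Bowtie 0.12.2. How reads were assigned to genes, with which annotation and strand setting, is not given in the sources used here. Values the authors deposited are raw, unscaled counts per Ensembl gene, in columns whose sample numbers the labels repeat. A second deposited table, of lipid genes, holds none of the markers and was not used here. Without a known counting rule, overlapping genes are uncertain.

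Positions, transcripts, GC and exonic length come from GENCODE M21 (GRCm38), matched by Ensembl identifier for 37693 of 39179 genes and all 7 markers, and none are in mm8. Genes were kept by filterByExpr with a minimum count of 10. TMM scaling gave factors of 0.840 and 0.936 for the Flag-IP libraries and 1.27 for IgG-IP. edgeR 4.0.16 (R 4.3.3) was used for the quasi-likelihood test, with 1 residual degree of freedom, a common dispersion of 0.0359 and no gene with finite prior degrees of freedom, so its p-values rest on a spread shared between genes. The SE is the log2 fold change divided by the square root of F. PCR reads are not independent molecules, so count intervals cover counting error only.

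Alternatives were upper-quartile, total-count and RLE scaling, TMM on genes under 10000 counts, DESeq2 1.42.0, no filter, a filter at a mean count of 50, a likelihood ratio test, prior counts of 0.5 and 10 in place of 2 for ratios of single libraries, GC and length trends, and leaving out each Flag-IP library. The markers and lists were chosen with earlier results of these data known. Named genes are the 7 markers, of each other list the 3 tested genes with the largest fold change in either direction among those averaging 20 counts or more, genes within 5000 bases of a marker, and the 3 genes most like the highest marker. Other genes, among them Csf1, Lyn, Fyn, Mrc2, Ly75, Adipoq and Cpa3, were chosen after their values were seen. A gene that the lysosomal list holds is not reported here, and the summary of that list is left out.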

Additional observations from a re-analysis of the deposited data

How the results depend on the processing

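Over all genes, total-count scaling called 342 higher and 3008 lower, DESeq2 131 and 145 (with no adjusted p for 15684 of 17587 genes), and the fit with the GC trend 397 and 348, against 981 and 1015. Of the markers, 0 were called higher in any setting. The number called lower was 1 with upper-quartile scaling (Ptprc), with a mean of at least 50 counts (Ptprc, as Lgals3 was not tested), with the likelihood ratio test (Lgals3), with the GC trend (Lgals3) and with the length trend (Lgals3), and 0 with DESeq2. Total-count scaling called 3, with Mrc1 added. Without Flag-IP replicate 1 the log2 fold changes of Ptprc and Lgals3 were -0.71 and -1.38, and without Flag-IP replicate 2 they were -0.92 and -1.26, with no test. None of the 28 values under other prior counts changed sign. In fits with a test, signs turned for genes that TMM-scaled edgeR did not call: Csf1r (-0.49 with total-count scaling, -0.030 with no filter, -0.52 with the GC trend and -0.083 with the length trend), Laptm5 (-0.14, GC), Cd163 (-0.36, total count), Cd4 (-0.42 total count, -0.21 GC, -0.075 length), Lck (-0.037 total count, -0.048 GC), Pax5 (-0.20, total count), Ptprj (-0.018, total count), Dlgap5 (-0.25, total count) and Lgals8 (0.11, GC). Without Flag-IP replicate 1, which leaves no test, the signs of Csf1r (-0.066), Cd163 (-0.23), Lgals9 (-0.52), Eif4a1 (-0.16) and Kit (0.11) turned as well, and none of these was called either. Apart from what the settings' construction shows, the cause was not tested. No paired analysis was possible because the groups share only 1 replicate number.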

Other observations

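Of 14 genes of T, B and NK cells in the table, 11 were tested. Of these edgeR called 0, beside 5.58% of all tested genes called higher and 5.77% called lower. At an unadjusted edgeR p under 0.05, 1 was higher and 0 were lower, beside 2268 and 2072 of 17587 tested genes. DESeq2, which gave an adjusted p to 1 of the 11, and edgeR's likelihood ratio test also called 0. Pax5, the transcription factor of B cells, was the most highly counted, with 188 and 207 counts in Flag-IP and 173 in IgG-IP. Lck, the T cell kinase that CD45 activates, had 26 and 25 counts in Flag-IP and 20 in IgG-IP, and the coreceptor gene Cd4 had 22 and 21 in Flag-IP and 22 in IgG-IP. Nkg7 had 0 counts in all 3 libraries.

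Of 10 genes of granulocytes and mast cells, 4 were tested. Of these edgeR called 0, beside the same 5.58% and 5.77% of all tested genes. At an unadjusted edgeR p under 0.05 there were 0 in either direction, beside 2268 higher and 2072 lower of 17587 tested genes. The likelihood ratio test called 0 as well, and DESeq2 gave none of the 4 an adjusted p. With so few genes tested, this is a description only. Kit, the stem cell factor receptor of mast cells, had 54 and 100 counts in Flag-IP and 97 in IgG-IP. The mast cell carboxypeptidase gene Cpa3 had 7 and 6 counts in Flag-IP and 21 in IgG-IP and did not pass. The neutrophil gene S100a8 had 0 and 1 counts in Flag-IP and 0 in IgG-IP.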
